A study of Mus musculus with 11 samples.

Results

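Fatty acid desaturases and elongases were described here in 11 mouse liver libraries, as 9 genes: the desaturase genes Scd1, Scd2, Fads1, Fads2 and Fads3 and the elongase genes Elovl1, Elovl2, Elovl3 and Elovl5. They were taken by gene name from the 31280 genes of the deposited table, and all 9 were found. All mice were wild-type C57BL/6 and ate a methionine- and choline-deficient (MCD) diet for 8 weeks, a diet that withholds nutrients needed to export fat from the liver and is used as a model of steatohepatitis. In the MCD group (n = 5) they received water into the stomach, and in the limonin group (n = 6) they received limonin, a bitter triterpenoid of citrus, by the same route at 100 mg/kg for 4 weeks. Both groups thus ate the deficient diet, and no complete-diet group was analysed here. The sources used here give neither sex nor age, and nothing in the labels says that animals were pooled, so p-values measure the spread between these libraries. Whole liver holds several cell types, and in such bulk RNA fewer cells of a type and less RNA per cell cannot be told apart.

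These enzymes of the endoplasmic reticulum shape the carbon chains of fatty acids. Stearoyl-CoA desaturases (SCD) place the first double bond into saturated chains and so make oleate and palmitoleate, which are favoured for storage as triglyceride. FADS enzymes add further double bonds to the essential fatty acids of the diet, and ELOVL enzymes carry out the first, rate-limiting step of each round of elongation, so that both together make arachidonate and docosahexaenoate. Hepatocytes use mainly Scd1, whose loss of expression on the MCD diet is well known, whereas Scd2 is the main isoform of brain and of many cells other than hepatocytes.

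Expression is given in FPKM, that is, fragments per kilobase of transcript scaled to the size of the library, so levels of different genes are compared per length. The step between low values, taken as 1 fragment, put library sizes at 15580000 to 19610000 fragments, and 9742 to 11087 genes per library reached 1 FPKM. Of 10489 genes that reached 1 FPKM in at least 5 libraries, 7.24% were higher and 18.7% lower in the limonin group at an adjusted p under 0.05 (limma on log2(FPKM + 1), Benjamini-Hochberg over all genes tested), which makes 25.9% in either direction. The share of higher genes among those called was 27.9%. Other scalings made it 42.4% (median ratios), 52.9% (quantiles) or 49.5% (equal summed FPKM). The median log2 fold change of all genes tested was -0.07.

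All 9 genes passed the filter and were tested. Scd2 and Fads3 fell with limonin and Elovl3 rose, while Scd1, Fads1, Fads2, Elovl1, Elovl2 and Elovl5 were not called. Thus 2 of 9 members were lower against a background of 18.7%, and 1 of 9 was higher against 7.24%, which in counts this small is near the share of all genes. The groups were fully separated downwards for 1 of 9 members, Scd2 (8.33% of all genes tested), and upwards for 0 of 9 (2.97% of all genes tested). Their mean levels over the 11 libraries ran from 215 FPKM for Fads2 through 89.4 for Fads1, 44.5 for Elovl5, 37.9 for Elovl1, 27.4 for Elovl2 and 16.8 for Scd1 to 5.71 for Fads3, 3.74 for Scd2 and 2.14 for Elovl3. The 3 genes that were called were thus the 3 with the lowest levels. In this order Elovl5 was above Elovl1 in 4 of 5 MCD and 5 of 6 limonin libraries, and Elovl2 was above Scd1 in the same numbers, so these neighbours were not separated. Scd2 was above Elovl3 in 5 of 5 MCD libraries but in 2 of 6 limonin libraries.

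**Figure D1:**
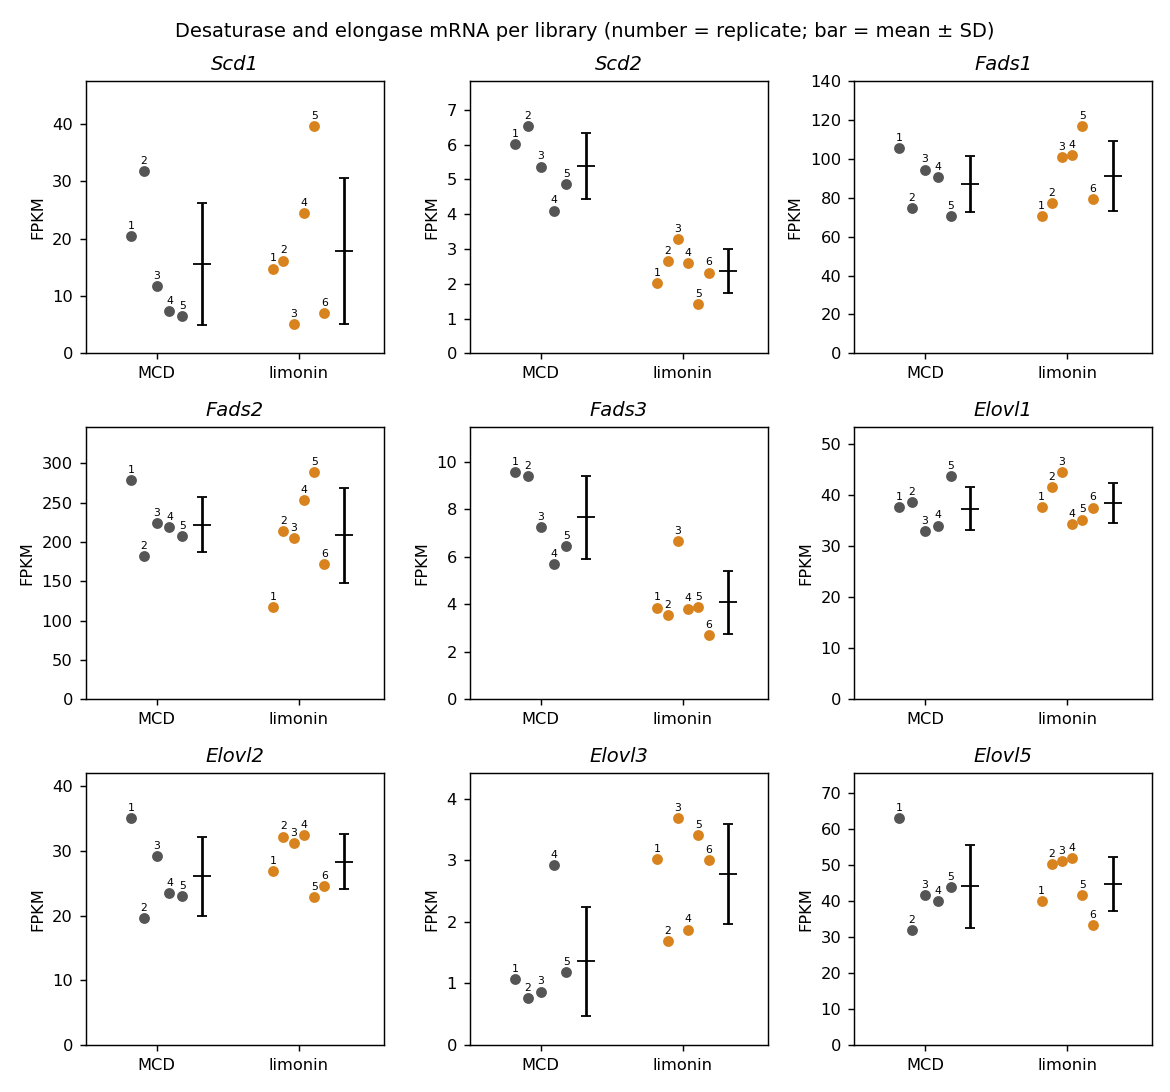
FPKM of the 9 genes in each library, with the MCD group in grey and the limonin group in orange; each point is 1 library with its replicate number, and the bar gives mean ± SD. All 6 limonin libraries lie below all 5 MCD libraries for Scd2 (1.41 to 3.28 against 4.11 to 6.53 FPKM), 4 of 6 lie above all MCD libraries for Elovl3, and the other groups overlap.

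Of the 2 stearoyl-CoA desaturase genes that were expressed, Scd2 fell and Scd1 was not called. Scd2 (chromosome 19, 44293674 to 44306864, plus strand, GRCm38) was measured at 6.02, 6.53, 5.37, 4.11 and 4.88 FPKM in MCD 1 to 5. In limonin 1 to 6 it was measured at 2.01, 2.65, 3.28, 2.59, 1.41 and 2.32 FPKM. Every limonin library lay below every MCD library. The mean was 5.38 ± 0.948 FPKM (SD, n = 5) in MCD and 2.38 ± 0.633 (SD, n = 6) with limonin, so that the limonin mean was 0.442 of the MCD mean. By limma the log2 fold change was -0.93 ± 0.14 (SE; adjusted p = 0.00165). With its single transcript of 5455 bases, these levels correspond to about 135 to 674 fragments per library.

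Scd1 (chromosome 19, 44394455 to 44407879, minus strand), the isoform of hepatocytes, varied more between libraries than any other member. It stood at 20.5, 31.8, 11.8, 7.33 and 6.50 FPKM in MCD 1 to 5. In limonin 1 to 6 it stood at 14.8, 16.2, 5.17, 24.5, 39.6 and 7.03 FPKM. Both groups thus held libraries near 7 FPKM and libraries above 24 FPKM, and their ranges overlapped almost wholly. The highest library was 7.67 times the lowest, and the SD was 68.2% of the mean in MCD and 71.1% with limonin. The log2 fold change of 0.13 ± 0.55 (SE; 95% interval -1.10 to 1.37; adjusted p = 0.885) leaves room for a change of more than 2-fold in either direction. Scd3 and Scd4, the remaining mouse isoforms, each stood at 0 in 7 of 11 libraries and at no more than 2 and 3 implied fragments in the others.

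The ratio of Scd1 to Scd2 within a library does not depend on how libraries are scaled. It was 3.41, 4.87, 2.19, 1.79 and 1.33 in MCD 1 to 5 and 7.35, 6.10, 1.57, 9.47, 28.1 and 3.03 in limonin 1 to 6. The ratio was above every MCD library in 4 of 6 limonin libraries, but not in limonin 3 and 6. On the scale of log2((FPKM + 1)/(FPKM + 1)) the ratio was higher by 1.06 with limonin, with p = 0.123 and an adjusted p of 0.246 over the 6 ratios tested (exact permutation test over all 462 splits, two-sided, smallest possible p 0.00216). An unequal change of the 2 isoforms was therefore not shown, although Scd2 was called and Scd1 was not. Scd1 and Scd2 lie 87.6 kb apart. Of the 50-base windows of Scd1 transcripts 4.61%, and of those of Scd2 3.79%, were also found in another gene described here, Scd3 and Scd4 included. The windows shared between Scd1 and Scd2 alone were not counted. A fragment wholly within shared sequence cannot be assigned by sequence alone, and how many fragments were so placed was not examined.

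Markers of several cell types other than hepatocytes fell beside Scd2, though those of endothelial cells mostly were not called. Of 12 stellate cell and fibroblast markers tested, 9 fell and 3 were not called, and their summed level was 156 to 266 FPKM in MCD and 104 to 128 FPKM with limonin, with no overlap. Vim, which encodes vimentin, fell by 1.28 ± 0.17 (SE) on the log2 scale. Pdgfrb, a growth factor receptor of stellate cells, fell by 0.96 ± 0.17. The log2 fold changes of the 9 ran from -0.52 ± 0.16 (Dcn) to -2.03 ± 0.39 (Col3a1), and that of Scd2 was -0.93 ± 0.14. The stellate cell and fibroblast markers not called were Reln (-0.07 ± 0.11), Lrat (-0.34 ± 0.16) and Ecm1 (-0.39 ± 0.16). Of 10 cholangiocyte (bile duct cell) markers, 7 were tested and 7 fell, with a summed level of 76.6 to 414 FPKM in MCD and 28.1 to 88.9 FPKM with limonin. Of 12 macrophage markers, 11 were tested and 7 fell, with sums of 242 to 887 FPKM and 154 to 259 FPKM. Without MCD 2 the number that fell was 2. The macrophage markers tested but not called were Adgre1 (-0.38 ± 0.24), Clec4f (-0.20 ± 0.37), Gpnmb (-1.79 ± 0.60) and Cd5l (-0.29 ± 0.41). Of 10 endothelial markers 9 were tested, with 1 higher, 2 lower and 6 not called, and sums of 43.5 to 82.3 FPKM in MCD and 41.7 to 61.4 FPKM with limonin. The higher call was lost in 8 of the 11 fits without 1 library (kept without MCD 3, MCD 4 or limonin 5), and 1 was lower in all such fits but those without MCD 1, MCD 4 or limonin 1. Low cholangiocyte and macrophage markers could enter the test by being high in MCD alone, so those 2 counts partly follow from the filter. Muc1 (1.31 to 4.22 FPKM in MCD, mean 0.578 with limonin) and Trem2 (1.5 to 8.84 FPKM in MCD, mean 1.17 with limonin) could. Every stellate cell and fibroblast marker reached 1 FPKM in every library (lowest value 1.19 FPKM, Reln), so the filter removed none of them. Of all genes tested, 18.7% were lower. The part of these cells in the fall of Scd2 was not tested.

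Genes of brain and myelin, tissues rich in Scd2, were also present at a low level. Their 10 markers summed to 7.75, 8.67, 9.04, 7.91 and 7.34 FPKM in MCD 1 to 5 and to 4.08, 7.70, 5.82, 5.43, 0.916 and 3.34 FPKM in limonin 1 to 6. None of the 10 was at 0 in more than 5 libraries. Mbp and Syt1 had the highest means, 3.3 and 1.09 FPKM in MCD. The other markers averaged from 0.0489 FPKM (Olig2) to 0.902 FPKM (Snap25) in MCD. Of the 2 that were tested, Mbp, which encodes myelin basic protein, fell by 0.75 ± 0.24 (adjusted p = 0.0366), a call that was lost in 8 of the 11 fits without 1 library, all but those without limonin 2, 3 or 5. Syt1, a synaptic vesicle gene, was not called (-0.04 ± 0.12). Limonin 5 had the lowest sum and the lowest Scd2. In limonin 2 the sum of 7.70 FPKM was within the MCD range while Scd2, at 2.65 FPKM, was below every MCD library. These are single libraries, and the part of such tissue in the level or the fall of Scd2 was not tested.

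**Figure D2:**
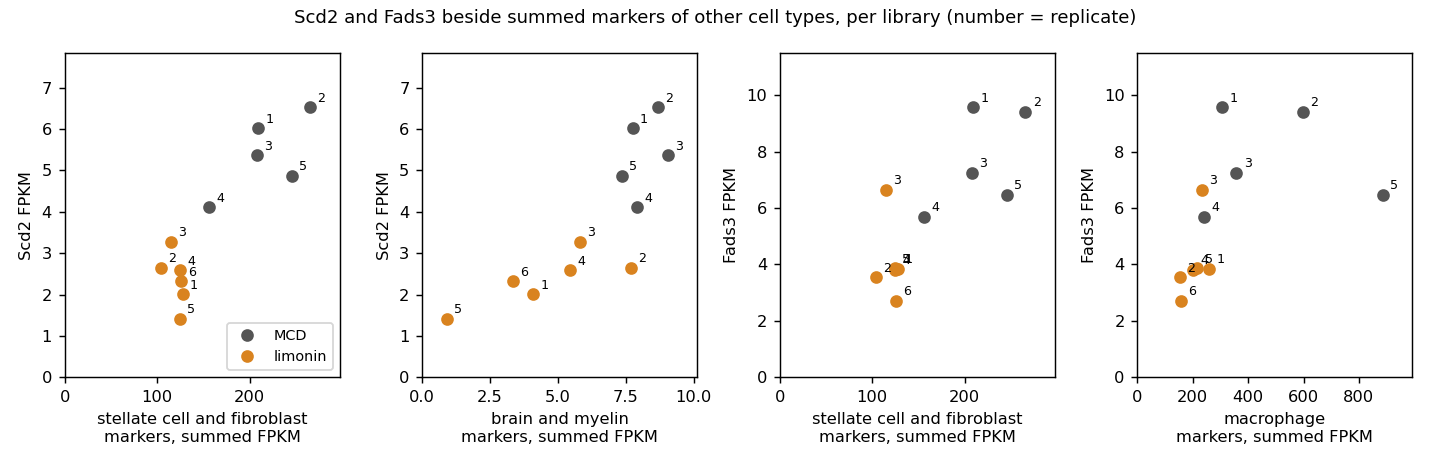
Scd2 (left pair) and Fads3 (right pair) in FPKM against the summed FPKM of marker genes of stellate cells and fibroblasts, of brain and myelin, or of macrophages; each point is 1 library with its replicate number, MCD in grey and limonin in orange. MCD libraries lie to the upper right in the Scd2 panel of stellate markers, while in the Fads3 panel limonin 3 lies above MCD 4 and 5. For brain markers, limonin 5 has the lowest sum, 0.916 FPKM, with 1.41 FPKM of Scd2. Limonin 2 has a brain marker sum of 7.70 FPKM with 2.65 FPKM of Scd2.

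The 3 FADS genes form a cluster on chromosome 19, in which Fads3 fell and its neighbours were not called. Fads3 (10041569 to 10060110, plus strand) ends 2.65 kb from the end of Fads2 (10062765 to 10101746, minus strand), and Fads1 (10182888 to 10196877, plus strand) starts 81.1 kb beyond Fads2. RefSeq promoter windows (GRCm38.p6) were matched for 5 of the 9 members. That of Fads3 is shown because Fads3 is the called member with such a window: the 250 bases upstream of its RefSeq start (chr19:10041298-10041547, plus strand), which also end before the GENCODE start given above, printed 5′ to 3′, with matches to 4 motifs on either strand in capitals. The motifs are the CCAAT box, the GC box GGGCGG, the TATA box TATAAA and the E-box CACGTG.
Fads3: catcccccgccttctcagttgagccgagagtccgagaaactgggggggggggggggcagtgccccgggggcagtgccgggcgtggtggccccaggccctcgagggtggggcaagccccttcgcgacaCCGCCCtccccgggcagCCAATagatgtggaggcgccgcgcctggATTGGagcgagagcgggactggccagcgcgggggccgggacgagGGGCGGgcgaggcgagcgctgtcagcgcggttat
The Fads3 window held 2 CCAAT boxes, the letters that the factor NF-Y binds, and 2 GGGCGG boxes, the letters that Sp1 binds. It held neither TATAAA nor CACGTG, and no matches overlapped one another. Of 32851 RefSeq promoter windows cut to the same length, 33.8% held CCAAT, 32.7% held GGGCGG, 12.4% held TATAAA and 6.02% held CACGTG. The matches describe these letters only, and no binding was measured.

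Fads3, a FADS family member that acts on sphingoid bases, was measured at 9.57, 9.41, 7.25, 5.68 and 6.47 FPKM in MCD 1 to 5. In limonin 1 to 6 it was measured at 3.86, 3.55, 6.65, 3.82, 3.87 and 2.71 FPKM. In 5 of 6 limonin libraries it lay below every MCD library, and limonin 3 lay above MCD 4 and 5. The mean was 7.68 ± 1.75 FPKM (SD, n = 5) in MCD and 4.08 ± 1.34 (SD, n = 6) with limonin, and the log2 fold change was -0.79 ± 0.17 (SE; limma adjusted p = 0.00659). It held in each fit without 1 library, with adjusted p from 0.00189 to 0.0251. Without both MCD 1 and 2, the libraries highest in Fads3, the adjusted p was 0.0970, and that fit called 270 of all genes instead of 2716. The stellate, cholangiocyte and macrophage markers given above fell in the same libraries, and their part in the fall of Fads3 was not tested. Limonin 3, the highest limonin library for Fads3, had the highest cholangiocyte sum of that group, 88.9 FPKM, the second highest macrophage sum, 233 FPKM, and the second lowest stellate sum, 114.7 FPKM.

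Fads2, the delta-6 desaturase that starts the synthesis of long polyunsaturated fatty acids, was the most abundant of the 9. It ran from 182 to 278 FPKM in MCD, with a mean of 222 ± 35.5 (SD, n = 5). In the limonin group it ran from 117 to 289 FPKM, with a median of 209 and a mean of 208 ± 60.4 (SD, n = 6). The lowest library, limonin 1, and the highest, limonin 5, were both in the limonin group, so the groups overlapped. Its log2 fold change was -0.13 ± 0.20 (SE; 95% interval -0.56 to 0.28; adjusted p = 0.641).

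Fads1, the delta-5 desaturase that makes arachidonate, ran from 70.6 to 106 FPKM in MCD, with a mean of 87.2 ± 14.5 (SD, n = 5). With limonin it ran from 70.6 to 117 FPKM, with a median of 90.2 and a mean of 91.2 ± 18.04 (SD, n = 6), and here too the groups overlapped. The log2 fold change was 0.06 ± 0.15 (SE; 95% interval -0.26 to 0.37; adjusted p = 0.807). These intervals exclude a 2-fold change of Fads1 or Fads2 in either direction under this fit.

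Fads1 and Fads2 varied together between libraries. After each group's mean was removed, their log2 values correlated over 11 libraries with r = 0.827 (permutation p = 0.00178, adjusted p = 0.0446 over 36 pairs of members) and rho = 0.809 (permutation p = 0.00566, adjusted p = 0.116). Within the MCD group r was 0.851, and within the limonin group it was also 0.851. Without the 2 libraries farthest from the median of Fads1, MCD 5 and limonin 1, r was 0.824. The rank correlation did not pass the adjustment. The only other pair to pass by r was Elovl2 and Elovl5, given with the elongases.

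Within a library, the ratio of Fads3 to Fads2 was 0.0260 to 0.0518 in MCD. In the limonin group it was 0.0134 to 0.0329 with a median of 0.0162, and in 4 of 6 libraries it was below every MCD library. The ratio was lower by 0.65 on the log2 scale (exact permutation p = 0.0433, adjusted p = 0.208 over 6 ratios), so it did not pass the adjustment. The ratio of Fads1 to Fads2 was 0.340 to 0.422 in MCD and 0.361 to 0.602 with limonin (difference 0.19 on the log2 scale, exact permutation p = 0.177, adjusted p = 0.265).

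**Figure D3:**
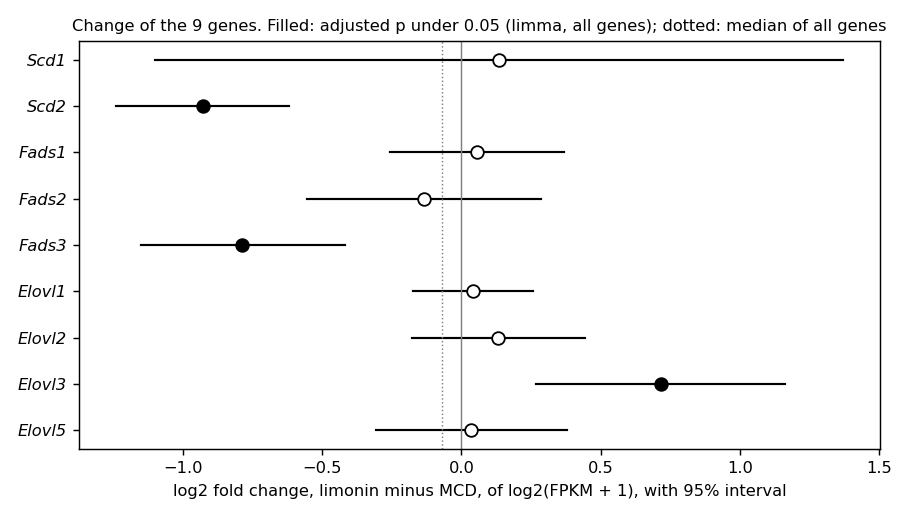
Log2 fold change, limonin minus MCD, of log2(FPKM + 1) for the 9 genes with 95% intervals; filled points have an adjusted p under 0.05, and the dotted line is the median of all genes tested (-0.07). Scd2 (-0.93) and Fads3 (-0.79) lie below 0, Elovl3 (0.72) lies above, and the interval of Scd1 is the widest (-1.10 to 1.37).

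Of the 4 elongase genes, Elovl3 rose and the others were not called. Elovl3 (chromosome 19, 46131897 to 46135694, plus strand) makes very long saturated and monounsaturated chains, and in mouse liver it is known to follow the daily rhythm and to be higher in males. It was measured at 1.07, 0.756, 0.868, 2.92 and 1.19 FPKM in MCD 1 to 5. In limonin 1 to 6 it was measured at 3.03, 1.69, 3.69, 1.87, 3.41 and 3.01 FPKM. MCD 4 stood above limonin 2 and 4, so the groups overlapped, and 4 of 6 limonin libraries lay above every MCD library. The mean was 1.36 ± 0.889 FPKM (SD, n = 5) in MCD and 2.78 ± 0.817 (SD, n = 6) with limonin, 2.04 times as high. The log2 fold change was 0.72 ± 0.21 (SE; limma adjusted p = 0.0242). It was 1.15 with a pseudocount of 0.01, since a pseudocount of 1 compresses the change of so low a gene.

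The call of Elovl3 was less stable than those of Scd2 and Fads3. It was lost without MCD 1 (adjusted p = 0.0573), MCD 2 (0.0740) or MCD 3 (0.0563), without both limonin 5 and 6 (0.0788), without both MCD 1 and 2 (0.195) and with no filter on low values (0.0741). Without MCD 4, the log2 fold change was 0.92 and the adjusted p 0.00163. Elovl3 reached 1 FPKM in 9 of 11 libraries, 6 of them in the limonin group, so that group alone would have carried it past the filter. With its annotated transcripts of 1593 and 1881 bases, the lowest library corresponds to about 22 or 25 fragments and the highest to about 115 or 136.

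Elovl3 is also a gene of adipose tissue and skin, and 9 of 10 adipocyte markers were in the table. Car3, which the liver also expresses, was the 1 tested (0.44 ± 0.21, not called). Adrb3, a fat cell adrenergic receptor, reached 1.36 FPKM, Cfd, the adipsin gene, 0.498 and Cidea, a lipid droplet gene, 0.364. Adipoq, Plin1 and the brown fat gene Ucp1 stood at no more than 0.0682, 0.0809 and 0.0238 FPKM, and 5 of the 9 were at 0 in more than 5 libraries. The sum of 111 to 249 FPKM in MCD and 132 to 273 FPKM with limonin came almost wholly from Car3. The part of such cells in the level of Elovl3 was not tested.

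**Figure D4:**
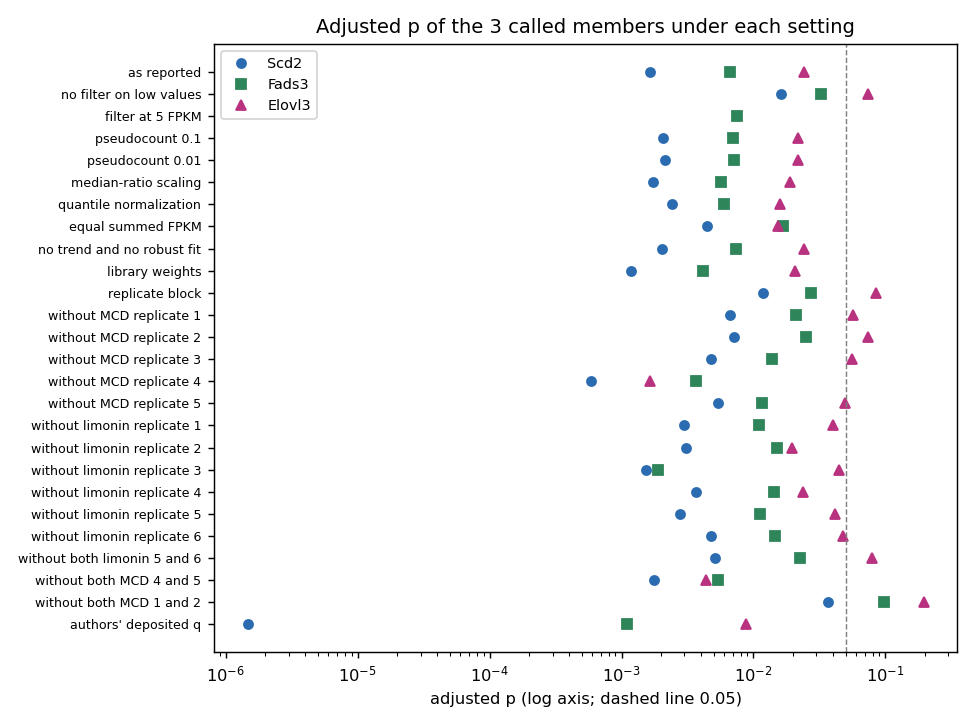
Adjusted p (log axis) of Scd2, Fads3 and Elovl3 in the fit as reported, under each alternative setting, with libraries left out, and in the authors' deposited table; the dashed line marks 0.05. Scd2 stays to the left of the line wherever it was tested, Fads3 crosses it without both MCD 1 and 2 (0.0970), and Elovl3 crosses it in 7 settings; Scd2 and Elovl3 have no point at a filter of 5 FPKM, where they were not tested.

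Elovl5 and Elovl2 lengthen polyunsaturated chains in succession on the way to docosahexaenoate. Elovl5 (chromosome 9, 77917364 to 77984519, plus strand) ran from 31.97 to 63.09 FPKM in MCD, with a mean of 44.1 ± 11.5 (SD, n = 5). With limonin it ran from 33.2 to 52.0 FPKM, with a mean of 44.7 ± 7.62 (SD, n = 6). Elovl2 (chromosome 13, 41182381 to 41220405, minus strand) ran from 19.6 to 35.1 FPKM in MCD, with a mean of 26.1 ± 6.11, and from 22.9 to 32.5 FPKM with limonin, with a mean of 28.4 ± 4.19. In both genes the limonin range lay inside the MCD range. The log2 fold changes were 0.04 ± 0.16 (95% interval -0.31 to 0.38, adjusted p = 0.895) for Elovl5 and 0.13 ± 0.14 (95% interval -0.18 to 0.44, adjusted p = 0.523) for Elovl2.

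Elovl2 and Elovl5 shared their highest and lowest MCD libraries, MCD 1 and MCD 2. With group means removed, they correlated over 11 libraries with r = 0.872 (permutation p = 0.00248, adjusted p = 0.0446 over 36 pairs) and rho = 0.827 (permutation p = 0.00644, adjusted p = 0.116). Without MCD 1 and 2, the libraries farthest from the median of Elovl2, r was 0.712. The ratio of Elovl2 to Elovl5 was 0.525 to 0.702 in MCD and 0.550 to 0.738 with limonin (difference 0.10 on the log2 scale, exact permutation p = 0.290, adjusted p = 0.348).

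Elovl1 (chromosome 4, 118428093 to 118432953, plus strand), which makes the very long saturated chains of sphingolipids, was the least variable member. It ran from 32.8 to 43.6 FPKM in MCD, with a mean of 37.3 ± 4.27 (SD, n = 5). With limonin it ran from 34.2 to 44.4 FPKM, with a mean of 38.4 ± 3.88 (SD, n = 6), so the groups overlapped. The log2 fold change was 0.04 ± 0.10 (95% interval -0.17 to 0.26, adjusted p = 0.785). Its 3′ end overlaps Cdc20, a cell cycle gene on the opposite strand at a mean of 4.14 FPKM, by 53 bases. Relative to Elovl5, Elovl1 differed by 0.0071 on the log2 scale (exact permutation p = 0.968, adjusted p = 0.968) and Elovl3 by 0.68 (exact permutation p = 0.0693, adjusted p = 0.208). None of the 6 ratios tested passed the adjustment by exact permutation, and 1 of 6, Fads3 to Fads2, had an unadjusted p under 0.05.

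The authors' deposited table marked the same 3 genes. It gives ratios of group means of 0.442 for Scd2 (q = 1.47e-06), 0.531 for Fads3 (q = 0.0011) and 2.04 for Elovl3 (q = 0.00884). The other 6 members have a q of 0.283 or more in the authors' deposited table.

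The other genes of the pathway and its surroundings were taken as 10 lists, whose counts stand beside 7.24% of all genes tested being higher and 18.7% lower; no list was tested against the others. Among 8 other desaturases and elongases, 3 were tested and none was called by limma, with 2 of them, Fads6 and Elovl6, at an unadjusted p under 0.05. Fads6, a FADS family member of unknown substrate, stood at 10.5 ± 0.368 FPKM (SD, n = 5) in MCD and 13.4 ± 2.30 (SD, n = 6) with limonin, with a log2 fold change of 0.30 ± 0.11 (SE; limma adjusted p = 0.0528; named after its value was seen). The number called higher was 1 without limonin 5 or 6, after each of the 3 other scalings, with library weights and in the authors' deposited table. Elovl6, which lengthens palmitate to stearate, the substrate of SCD, stood at 5.42 ± 0.648 FPKM (SD, n = 5) in MCD and 3.97 ± 1.39 (SD, n = 6) with limonin. Its log2 fold change was -0.41 ± 0.17 (SE; adjusted p = 0.0836), and -0.52 without limonin 1, where it was called (adjusted p = 0.0174). Of 12 listed partners of elongation and electron donors, 10 were tested and 1 rose, Cyb5b, a cytochrome b5, at 0.57 ± 0.11. The count was 2 without MCD 5 or without limonin 5. Cyb5a, the cytochrome b5 that hands electrons to SCD and FADS enzymes in the endoplasmic reticulum, was not called (-0.12 ± 0.11).

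In the list of saturated fatty acid supply, 8 of 8 genes were tested, of which 1 rose, 1 fell and 6 were not called, with a median log2 fold change of -0.06. Me1, the malic enzyme that supplies NADPH, rose by 0.58 ± 0.10 on the log2 scale, with a mean of 28.6 ± 3.00 FPKM (SD, n = 5) in MCD and 43.4 ± 3.80 (SD, n = 6) with limonin. Fasn, fatty acid synthase, fell by 0.45 ± 0.14 on the log2 scale, a call lost in 5 of the 11 fits without 1 library (without MCD 1 or 2 or limonin 2, 5 or 6) and at equal summed FPKM (adjusted p = 0.12). The count of lower genes was 2 without MCD 5 and that of higher genes 2 without limonin 5. Of 14 regulators 13 were tested, with 2 higher, 2 lower and 9 not called. Srebf1, the sterol-regulated activator of Scd1 and Fads genes, was not called (0.07 ± 0.14). Insig1, which holds back that activation, rose by 0.56 ± 0.18, and Ppara, the fatty acid sensor of hepatocytes, by 0.75 ± 0.21. Pparg, the fat-storing relative of Ppara, fell by 0.45 ± 0.11 and Nr1h2, a liver X receptor, by 0.40 ± 0.12. Regulators called higher numbered 0 without MCD 2 and 1 without MCD 3, MCD 5 or limonin 2, 3 or 4, and those called lower numbered 1 without MCD 1 or MCD 2 and 0 at equal summed FPKM.

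Among genes that use the products, 9 of 14 activating and acylating enzymes were tested, with 4 higher, 1 lower and 4 not called, and a median of 0.30. Acsl1 and Acsl5, which activate fatty acids, rose by 0.81 ± 0.15 and 0.48 ± 0.11, and Lclat1, which remodels phospholipids, by 0.45 ± 0.10. Lpcat1, a lysophosphatidylcholine acyltransferase, fell by 0.62 ± 0.10 from 1.75 ± 0.237 to 0.789 ± 0.158 FPKM. It entered the test only through the 5 MCD libraries and was not tested without any 1 of them. Lpcat3, which places polyunsaturated chains into phospholipids, was not called (0.30 ± 0.13). Of 9 genes of peroxisomal chain shortening, the last step to docosahexaenoate, 3 rose and 6 were not called, with a median of 0.25. The peroxisomal transporter genes Abcd2 (0.56 ± 0.17) and Abcd3 (0.48 ± 0.13) were among them. The number of higher genes was 0 without MCD 2 and 1 without MCD 5.

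PPAR-alpha targets were tested because several desaturase and elongase genes respond to this receptor. Of 12, 5 rose, 1 fell and 6 were not called, with a median of 0.22. Those with the smallest p were Cyp4a10 (0.72 ± 0.11) and Cyp4a14 (0.73 ± 0.14), fatty acid hydroxylases, Vnn1 (0.51 ± 0.14), a pantetheinase, and Ehhadh (0.57 ± 0.18), a peroxisomal enzyme. Of these targets, 2 were higher without MCD 2 and 3 without MCD 3, MCD 4 or limonin 3. Fgf21, a hormone of fasting and stress, was the 1 that fell (-1.52 ± 0.50; named after its value was seen), a call kept without limonin 3 or without limonin 4 and lost in the other 9 fits without 1 library (largest adjusted p 0.119). In the clock list, 2 of 13 tested genes rose, Nr1d1 (0.64 ± 0.15), the repressor REV-ERB alpha, and Hlf (0.48 ± 0.12), an output factor, and none was called lower, with a median of 0.08; 1 was called lower without limonin 3. The sources used here do not give the time of day of tissue collection. In the male-biased list, 4 of 7 tested genes rose, with a median of 0.53, where 7.24% of all genes tested were higher. They were Ugt2b38 (1.3 ± 0.24), Cyp7b1 (0.70 ± 0.14), Cyp2d9 (0.53 ± 0.16) and Nudt7 (0.34 ± 0.11), and 2 were higher without MCD 1 or without MCD 2. Over all these lists together, 27 of 88 tested genes were called, against a background of 25.9%, and without MCD 2 the number was 13. Of the 27, 21 were higher and 6 lower, where 7.24% of all genes tested were higher and 18.7% lower. At equal summed FPKM 26 were higher and 2 lower, a setting in which 49.5% of all called genes were higher. The movement of clock and male-biased genes beside Elovl3 was not tested as a source of its rise.

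**Figure D5:**
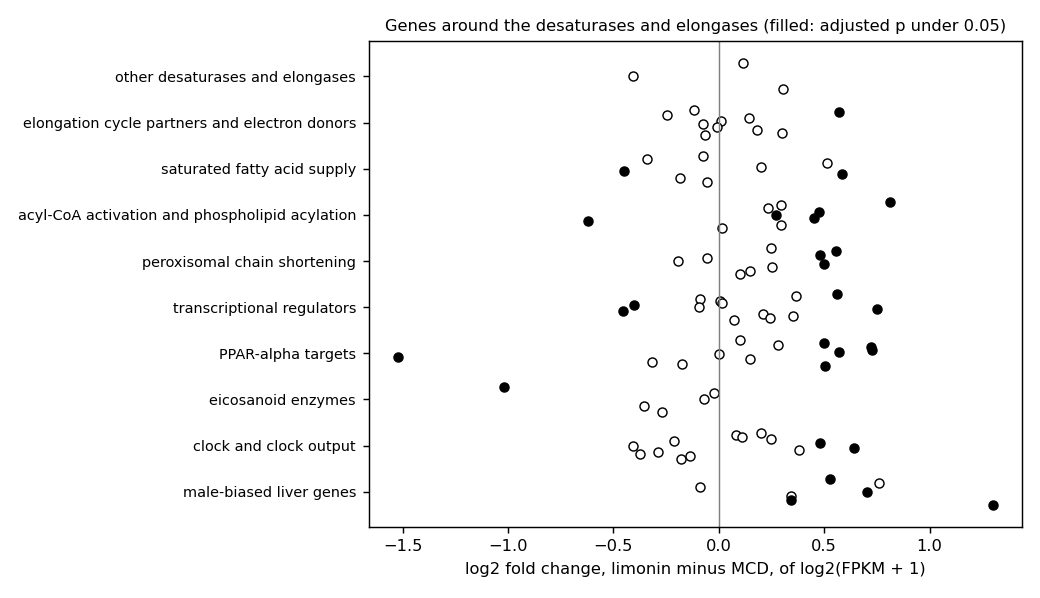
Log2 fold change, limonin minus MCD, of each tested gene in the 10 pathway lists; filled points have an adjusted p under 0.05. Filled points lie on both sides of 0 for saturated fatty acid supply and regulators, and Fgf21, at -1.52, is the farthest to the left.

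The genes whose pattern over the 11 libraries was most like that of a member were sought among 4911 tested genes with a mean of at least 5 FPKM, by the mean absolute difference of centred log2(FPKM + 1) values. For Scd2 they were Bcam (0.120), a laminin receptor of epithelia and vessels, Gas6 (0.128), a ligand of the receptors AXL and MERTK, and Lbh (0.144), a Wnt-responsive regulator. For Fads3 they were Kctd17 (0.110), Plscr3 (0.126), a phospholipid scramblase, and Rhbdf1 (0.135), an inactive rhomboid. For Elovl3 they were Cyp4a10 (0.190), Nr1d1 (0.206) and Ftcd (0.240), an enzyme of histidine and folate metabolism. For Scd1 the nearest were Rps19-ps6 (0.479), a ribosomal protein pseudogene whose sharing of reads with its parent was not examined, Ugt1a5 (0.542) and Per2 (0.556). These differences are not scaled to the spread of a gene. Scd1 varied most of the members, so its larger differences cannot be compared with those of the others.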

How the data were processed

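Liver mRNA of 5 MCD and 6 limonin mice was sequenced, 1 library per replicate. The submitters' processing notes list the tools cutadapt 1.9, HISAT2 2.0.4 and StringTie 1.3.4d, and a human genome build, GRCh38, for identifiers that are those of mouse; coordinates here are from GENCODE M21 (GRCm38). Per the file headers, the authors' deposited values are FPKM for each library. The deposited table also has a fold change, which equals the ratio of mean FPKM, and the log2 of this ratio. The authors' p-value and q-value come from a test that the sources used here do not name. The library protocol marks the strand; the sources used here do not say whether quantification used it.

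Counts were not used here. FPKM were taken to log2(FPKM + 1), which understates changes of low genes. Genes reaching 1 FPKM in 5 or more libraries entered limma 3.58.1 under R 4.3.3 (trended prior, robust, two-sided, Benjamini-Hochberg over all genes, threshold 0.05), and the procedure was tested on simulated data. Ratios were compared by exact permutation, and under the replicate block by exact sign flips of the paired differences. Correlations used 100000 permutations within groups. The lists held 10 pathways and 8 cell types. Genes were named by rule: all members, up to 4 called genes of each pathway list with the smallest p, the 3 genes most alike for Scd1, Scd2 and each called member, and Elovl6, Scd3 and Scd4; other names were chosen after their values were seen. The members and lists were chosen with earlier results of these data known. Alternatives changed the filter, pseudocount, scaling, variance model, library weights and replicate block, left out each library in turn, or used the deposited q; leaving out 2 libraries of a group was chosen after seeing the data. One called gene of the pathway lists is not reported here.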

Additional observations from a re-analysis of the deposited data

Results flagged for a closer look

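In 4 of 32 groups of values examined, 1 library stood apart from the rest of its group by more than Dixon's 95% limit, and chance alone flags about 1 in 20 groups. Elovl3 in MCD 4, at 2.92 FPKM, was far from the next MCD library at 1.19 FPKM. The ratio of Elovl3 to Elovl5 in the same library, 0.0729, was likewise far above the next at 0.027. Fads3 in limonin 3, at 6.65 FPKM, stood above the next limonin library at 3.87 FPKM. The ratio of Scd1 to Scd2 in limonin 5 was 28.1, against 9.47 in the next library.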

How the results depend on the processing

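Scd2 kept its direction and call in all 24 alternatives in which it was tested (log2 fold change -1.20 to -0.79, largest adjusted p 0.0365), and Fads3 in 24 of 25. Among members, the number called higher was 1 and became 0 with no filter, at a filter of 5 FPKM (where Elovl3 was not tested), with the replicate block and without both limonin 5 and 6 or both MCD 1 and 2; with 1 library left out it was 0 to 1. The number called lower was 2 and became 1 at a filter of 5 FPKM (where Scd2 was not tested) and without both MCD 1 and 2; with 1 library left out it stayed at 2. Of the pathway genes 27 were called, and 17 with no filter, 15 with the replicate block, 3 without both MCD 1 and 2, 43 in the authors' deposited table and 13 to 28 with 1 library left out. Except where a filter removed a gene, the cause was not tested. None of the 6 ratios was called in any of 17 alternatives, in which fits without 1 library are smaller still. The replicate block used exact sign flips over 5 pairs, too few for any p under 0.05, so it could not call a ratio. Fits without 2 libraries of a group had fewer splits, so a call was harder to reach there.

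Of the 6 members that were not called, 5 changed sign. With 1 library left out, log2 fold changes ran from -0.144 to 0.438 for Scd1, -0.0191 to 0.129 for Fads1, -0.24 to 0.0186 for Fads2, -0.000757 to 0.0994 for Elovl1 and -0.0694 to 0.17 for Elovl5, and the Elovl1 to Elovl5 ratio from -0.124 to 0.125. Without both MCD 4 and 5, Scd1 was at -0.424 and Fads1 at -0.0156. The Elovl1 to Elovl5 ratio was -0.0676 with the replicate block, -0.0781 without both limonin 5 and 6 and -0.0106 without both MCD 1 and 2.

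Same-numbered libraries did not pair: the correlation of their deviations from the group means ran from -0.235 to 0.204 over 5 pairs, and 1 of 5 MCD libraries correlated best with its own number. With the replicate number as a block, in which limonin 6 has no partner and drops out, 0 members were higher and 2 lower (Elovl3 adjusted p = 0.0850).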

Other observations

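Enzymes that turn polyunsaturated fatty acids into eicosanoids were mostly too low to test: 5 of 12 passed the filter. Alox5ap, which presents arachidonate to 5-lipoxygenase, fell by 1.02 ± 0.20 (SE) on the log2 scale (limma adjusted p = 0.00417). Its mean was 7.28 ± 2.92 FPKM (SD, n = 5) in MCD and 2.92 ± 0.615 (SD, n = 6) with limonin. The other 4 were not called (list median -0.27). Alox5, the gene of 5-lipoxygenase itself, was too low to test, with means of 0.097 FPKM in MCD and 0.0281 with limonin. Of the 12 hepatocyte markers 4 rose (Alb, Cps1, Tdo2 and F2) and 8 were not called, where 7.24% of all genes tested were higher. Log2 fold changes of the 8 ran from -0.65 ± 0.23 (Apoa1) to 0.40 ± 0.18 (Hpd). The 12 markers summed to 36800 to 45100 FPKM in MCD and 38300 to 56900 FPKM with limonin. None was called lower, but 1 was without limonin 4 and 2 were without limonin 5. Of 10 lymphocyte markers 3 were tested and 3 fell, where 18.7% of all genes tested were lower, with sums of 7.96 to 15.3 FPKM in MCD and 3.45 to 8.18 FPKM with limonin. The other 7 lymphocyte markers were too low to test, and since low markers could pass the filter by being high in MCD alone, as Cd79b could (1.26 to 2.67 FPKM in MCD, mean 0.737 with limonin), this count partly follows from the filter.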
